A study of Mus musculus with 16 samples.

Results

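The colony-stimulating factors and their receptors were described here as 7 genes, taken by name from a table of 49315 genes: the secreted factors Csf1, Il34, Csf2 and Csf3, and the receptor genes Csf1r, Csf2rb and Csf3r. All 7 were present once in the table, and all 7 passed the filter of at least 1 TPM in at least 3 libraries that left 24188 genes for testing. TPM (a relative abundance of transcripts) corrects the reads of a gene for its length and scales each library to the same sum. The tissue was the intervertebral disc of the mouse tail, with the 4 discs Co3/4 to Co6/7 of each mouse pooled into 1 library. Wild-type mice had intact discs (WT_INTACT, n = 3) or injured discs (WT_INJURED, n = 4), and Adam8EQ mice, which carry a mutation in the gene of the membrane-anchored metalloprotease ADAM8, had intact discs (MUT_INTACT, n = 4) or injured discs (MUT_INJURED, n = 5). The series title names the inbred strain DBA, and the labels do not describe the kind of injury, the time after it, the age of the mice or what the EQ allele changes. The mutant libraries carry names of 2 kinds, A8 in mice 1 and 2 of both mutant groups and M in the others, and all wild-type libraries carry a further kind, D, so genotype and library naming cannot be told apart.

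Colony-stimulating factors are secreted proteins named for making bone marrow precursors grow into colonies of white blood cells. CSF1 (M-CSF) and the unrelated protein IL-34 both bind CSF1R, a receptor tyrosine kinase on macrophages, their precursors and osteoclasts, which depend on it to survive. CSF2 (GM-CSF) acts on macrophages, granulocytes and dendritic cells through a specific alpha chain, Csf2ra, and the signalling beta chain Csf2rb that IL-3 and IL-5 also use. CSF3 (G-CSF) binds CSF3R and drives the formation and release of neutrophils. The healthy disc has few blood vessels and few resident leukocytes.

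Depth, computed from the TPM and the gene lengths, was 10219349 to 24878450 implied reads per library. The summed level of 10 disc cell markers, among them the cartilage matrix genes Acan and Col2a1, was 20324 to 28627 TPM in intact libraries and 9667 to 24194 TPM in injured ones. Adam8 stood between 0.956 and 2.97 TPM in every intact library of either genotype and between 3.52 and 264.1 TPM in injured libraries. Its mRNA level does not test the genotype label, since the allele is not described as removing the transcript. Injured wild-type mice were unlike each other: mice 3 and 4 had 4304 and 2796 TPM of summed macrophage markers, mice 1 and 2 had 298 and 480 TPM, and the intact wild-type libraries had 193 to 219 TPM. In bulk tissue, more cells of a type and more RNA per cell cannot be told apart.

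**Figure D1:**
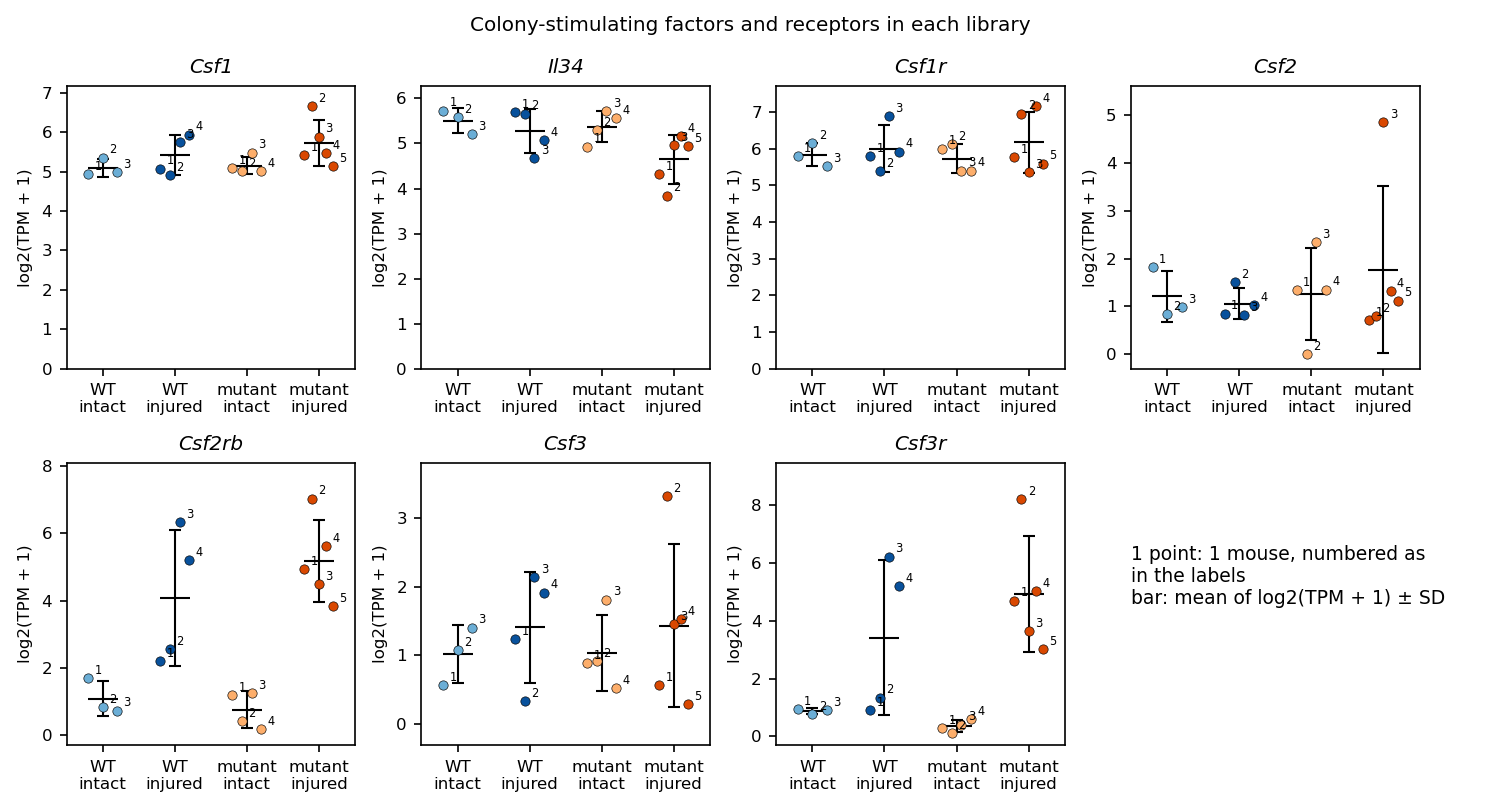
Level of each gene in each mouse on the log2(TPM + 1) scale, with 1 panel per gene, 1 point per mouse and the group mean ± SD as a bar. Csf1, Il34 and Csf1r lie high in every mouse, while Csf2rb and Csf3r lie near 0 in intact discs and high in all 5 injured mutant mice and in injured wild-type mice 3 and 4.

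The ligands of CSF1R were among the well expressed members in every library. Csf1 (ENSMUSG00000014599, GRCm38 chromosome 3, 107741048 to 107760469, minus strand) is the main growth factor of macrophages. Its level was 29.6, 39.9 and 30.7 TPM in intact wild-type discs and 32.7, 28.9, 53.0 and 60.3 TPM in injured ones. In the mutants it was 32.9, 31.4, 43.6 and 31.3 TPM in intact discs and 41.8, 99.5, 58.3, 43.5 and 34.4 TPM in injured discs. Group means ran from 33.4 ± 5.63 (SD, n = 3) in intact wild type over 34.8 ± 5.94 (n = 4) in intact mutants and 43.7 ± 15.3 (n = 4) in injured wild type to 55.5 ± 26.1 TPM (n = 5) in injured mutants. Neighbouring groups in this order overlapped, and so did the injured and intact groups of each genotype. Injury changed Csf1 past the threshold in neither genotype: the difference of mean log2(TPM + 1), injured minus intact, was 0.33 ± 0.31 (moderated SE) in wild type (limma, adjusted p = 0.604) and 0.57 ± 0.28 in mutants (adjusted p = 0.133).

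Il34 (ENSMUSG00000031750, chromosome 8, 110741829 to 110805924, minus strand) encodes the second ligand of CSF1R, known for maintaining Langerhans cells of the skin and microglia of the brain. Intact wild-type discs held 52.2, 47.3 and 35.8 TPM, and injured ones 50.7, 49.7, 24.4 and 32.8 TPM. Intact mutant discs held 29.5, 38.2, 51.6 and 46.2 TPM, and injured ones 19.0, 13.4, 30.2, 34.8 and 29.9 TPM. Injured mutants had the lowest mean, 25.4 ± 8.90 TPM (SD, n = 5), against 41.4 ± 9.62 TPM (n = 4) in intact mutants, 39.4 ± 12.9 TPM (n = 4) in injured wild type and 45.1 ± 8.39 TPM (n = 3) in intact wild type. The groups overlapped through the intact mutant with 29.5 TPM. The difference with injury in mutants was -0.73 ± 0.28 and missed the threshold (limma, adjusted p = 0.0599), and that in wild type was -0.23 ± 0.32 (adjusted p = 0.725). Il34 in mutants lay close to the threshold, and whether it passed depended on the setting. It passed by limma without intact mutant mouse 1 (adjusted p = 0.0468), injured mutant mouse 4 (0.0348) or injured wild-type mouse 3 (0.0436). A fit of the implied reads with limma's voom also passed (0.0280). In the other alternatives Il34 did not pass. There its adjusted p by limma reached 0.148 without intact mutant mouse 3 and 0.205 with the mutants named M. The antisense gene Gm15894, which shares 22 exon bases with Il34, was also lower in injured mutants (-1.06, limma, adjusted p = 0.0283), and whether the counting used strand is not given in the sources used here.

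Set against each other, Csf1 had a higher and Il34 a lower mean in injured than in intact mutants, although neither passed alone. The log2 ratio of Csf1 to Il34, each as TPM + 1, was -0.23 ± 0.29 (SD, n = 4) in intact and 1.07 ± 1.05 (n = 5) in injured mutants, and was higher in each injured mutant than in each intact one. The lowest injured mutant, at 0.19, was only just above the highest intact one, at 0.15. This difference of 1.29 had the smallest two-sided p that an exact permutation of 5 against 4 mice can give, 0.0159, and an adjusted p of 0.0794 over the 20 ratio tests, so it did not pass. In wild type the ratio was -0.42 ± 0.33 (n = 3) in intact and 0.14 ± 0.97 (n = 4) in injured discs, with injured mice 3 and 4 at 1.09 and 0.86 and injured mice 1 and 2 at -0.61 and -0.76 (exact permutation, p = 0.457, adjusted p = 0.538). The sum of both ligands varied less, from 60.8 to 112.8 TPM over all 16 mice, with group means of 76.2 to 83.1 TPM.

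**Figure D2:**
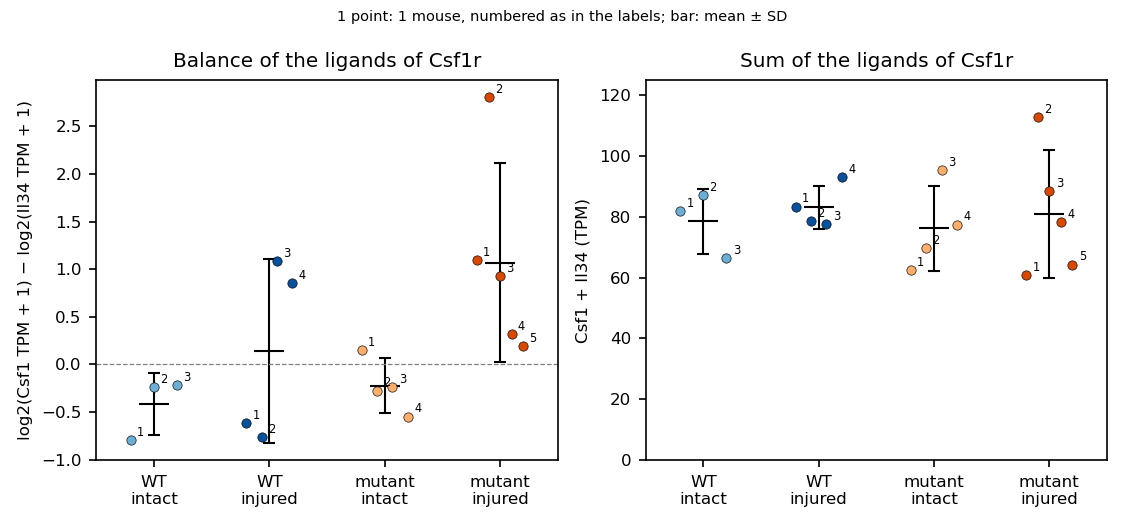
Left, log2 ratio of Csf1 to Il34 (each as TPM + 1) in each mouse; right, summed level of both ligands in TPM; bars are the group mean ± SD. Ratios of injured mutants start at 0.19 and those of intact mutants end at 0.15, while the sums of all 4 groups overlap.

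Csf2 and Csf3 were at the limit of detection. Csf2 (ENSMUSG00000018916, chromosome 11, 54247271 to 54249667, minus strand) had 0 to 11 implied reads in 15 of the 16 libraries, or 0 to 4.06 TPM. The exception was injured mutant mouse 3, with 73 implied reads and 27.9 TPM, against 0.647, 0.735, 1.49 and 1.18 TPM in the other injured mutants. Without that mouse the injured mutant mean was 1.01 TPM in place of 6.40 TPM. Csf2 did not pass for injury in mutants (0.51 ± 0.71, limma, adjusted p = 0.623) or in wild type (-0.16 ± 0.81, adjusted p = 0.937), and the first difference was -0.27 without injured mutant mouse 3. At 0 to 11 reads a difference in Csf2 of a few-fold was not detectable at this depth. Csf2 shares 96 bases, 12% of its exon length, with the antisense gene Gm12223, which stood at 0 to 5.79 TPM. Reads of the 2 genes there cannot be told apart unless the counting used strand.

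Csf3 (ENSMUSG00000038067, chromosome 11, 98701263 to 98703629, plus strand) had 1 to 43 implied reads. The highest level was 8.95 TPM in injured mutant mouse 2, and the other 15 mice lay between 0.222 and 3.41 TPM. The group means were 1.08 ± 0.58 TPM (SD, n = 3) in intact wild type, 1.95 ± 1.41 (n = 4) in injured wild type, 1.17 ± 0.91 (n = 4) in intact mutants and 2.66 ± 3.59 (n = 5) in injured mutants, the last being 1.08 TPM without mouse 2. All groups overlapped, and the differences with injury were 0.40 ± 0.54 in mutants (limma, adjusted p = 0.612) and 0.39 ± 0.61 in wild type (adjusted p = 0.766). The value in mutants was -0.08 without injured mutant mouse 2.

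The transcripts of Csf2 and Csf3 are known for AU-rich elements in the 3′ untranslated region, runs of ATTTA by which proteins of the tristetraprolin family mark cytokine mRNA for decay. The Csf2 transcript of GENCODE M21 held 9 ATTTA in a 3′ untranslated region of 317 bases, 4 of them within the longer form TTATTTATT, and 7.19% of 20636 genes held as many. That of Csf3 held 6, that of Csf1 held 4, that of Il34 held 1, and those of Csf2rb and Csf3r held none. The transcript of Csf1r was not searched. The densest stretch of Csf2, shown because this ligand held the most ATTTA of the 6 members searched, covers bases 230 to 259 of that region and holds 5 overlapping ATTTA, in capitals as 1 run.
Csf2: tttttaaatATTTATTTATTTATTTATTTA
Of the 8 genes listed for the decay of cytokine mRNA, 2 rose and 1 fell with injury in mutants, where 13.1% of all tested genes rose and 17.7% fell, so that the share called was near that of all genes. Zc3h12a, whose product Regnase-1 cuts cytokine mRNA, rose by 2.27 ± 0.46 (limma, adjusted p = 0.00302), Zfp36l1 rose by 0.72 ± 0.25 (adjusted p = 0.0416, a call that held in 16 of 29 alternative settings) and Zfp36l2 fell by 0.91 ± 0.23 (adjusted p = 0.00885). None of the 8 passed in wild type.

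Csf1r (ENSMUSG00000024621, chromosome 18, 61100598 to 61132149, plus strand) was expressed in intact discs at the level of its ligands. Intact discs held 54.7, 70.7 and 45.4 TPM in wild type and 63.1, 68.7, 41.3 and 41.4 TPM in mutants. Injured discs held 54.4, 40.9, 118.3 and 59.6 TPM in wild type and 53.8, 123.4, 40.1, 142.3 and 47.3 TPM in mutants. Only injured wild-type mouse 3 and injured mutant mice 2 and 4 exceeded the highest intact disc, and the lowest value of all, 40.1 TPM, was also from an injured mutant. Injury gave differences of 0.17 ± 0.43 in wild type (limma, adjusted p = 0.869; 95% interval -0.75 to 1.09) and 0.44 ± 0.38 in mutants (adjusted p = 0.410; interval -0.37 to 1.25), and neither passed. The wild-type difference was -0.13 without injured mouse 3. Csf1r shares 873 bases, 15.1% of its exon length, with Hmgxb3 on the opposite strand, which stood at 30.1 to 46.8 TPM. Reads of the 2 genes there cannot be told apart unless the counting used strand.

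Csf2rb was the member with the strongest test result. The gene (ENSMUSG00000071713, chromosome 15, 78325752 to 78353847, plus strand) encodes the beta chain shared by the receptors of GM-CSF, IL-3 and IL-5. Intact discs held 2.21, 0.792 and 0.651 TPM in wild type and 1.27, 0.330, 1.36 and 0.130 TPM in mutants. Injured mutant discs held 29.8, 130.4, 21.3, 48.2 and 13.3 TPM, and injured wild-type discs 3.56, 4.90, 80.0 and 35.6 TPM. Every injured disc exceeded every intact disc of its genotype. In mutants Csf2rb rose by 4.43 ± 0.78 on the log2(TPM + 1) scale (limma, adjusted p = 0.00146), and in wild type the difference was 2.99 ± 0.89 and did not pass (adjusted p = 0.153). The wild-type difference was 3.62 and passed without injured mouse 1 (adjusted p = 0.0488), and was 2.23 without injured mouse 3 (adjusted p = 0.392).

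Csf2rb lies beside Csf2rb2 (ENSMUSG00000071714, chromosome 15, 78282507 to 78305721, minus strand), a mouse duplicate whose beta chain serves only IL-3. The coding sequences were 95.2% identical over 2628 aligned bases, and 18.9% of the 50-base stretches of a Csf2rb transcript also occurred in a Csf2rb2 transcript. Reads from such stretches could be counted for either gene. Coding bases 24 to 83 of both (GENCODE M21 transcripts), with the 3 differing bases in capitals, show how close the genes are.
Csf2rb: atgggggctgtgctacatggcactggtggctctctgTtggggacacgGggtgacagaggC
Csf2rb2: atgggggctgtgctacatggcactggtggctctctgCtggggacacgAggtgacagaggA
Csf2rb2 held 0.134 to 1.84 TPM in intact discs, 6.93 to 56.3 TPM in injured mutants and 1.11, 3.13, 66.9 and 21.9 TPM in injured wild-type mice. Among intact discs only wild-type mouse 1 and mutant mouse 3 reached 1 TPM, so the gene passed the filter through injured libraries. It rose by 3.85 ± 0.82 in mutants (limma, adjusted p = 0.00383), and the difference in wild type was 2.44 ± 0.93 (adjusted p = 0.224). The share of Csf2rb in the sum of both genes lay between 45.3% and 76.2% in the 16 libraries, and the sum gave 4.75 in mutants (adjusted p = 0.00151), so the sum of both genes was called as well.

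The alpha chain Csf2ra, the part of the GM-CSF receptor that binds the ligand specifically, showed another pattern. It was present in intact discs, at 50.7, 54.6 and 54.5 TPM in wild type and 41.8, 40.3, 36.8 and 39.9 TPM in mutants. Injured mutants held 64.5, 231.0, 50.3, 86.7 and 45.6 TPM, all above the intact mutants, and injured wild-type discs held 46.7, 51.7, 100.5 and 86.4 TPM, of which the first 2 lay at the intact level or below. The difference in mutants, 0.97 ± 0.37, missed the threshold (limma, adjusted p = 0.0582). On this length-corrected scale, intact discs thus held Csf2ra at 36.8 TPM or more and Csf2rb at 2.21 TPM or less.

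Csf3r (ENSMUSG00000028859, chromosome 4, 126024550 to 126044440, plus strand), the receptor of G-CSF and a gene of the neutrophil lineage, was almost absent from intact discs. Wild-type intact discs held 0.941, 0.697 and 0.860 TPM and mutant ones 0.224, 0.0871, 0.328 and 0.515 TPM, from 1 to 10 implied reads. No intact library reached 1 TPM, so Csf3r passed the filter only through injured libraries, where it was high. Injured mutant discs held 25.0, 296.6, 11.5, 31.9 and 7.03 TPM, and injured wild-type discs 0.887, 1.54, 73.7 and 35.6 TPM. All 5 injured mutants lay above all intact mice, whereas injured wild-type mouse 1 lay among the intact ones. In mutants Csf3r rose by 4.57 ± 1.08 (limma, adjusted p = 0.00662), and by 3.74 without mouse 2 (adjusted p = 0.0113), whose level set the group mean: 74.4 TPM with it and 18.9 TPM without it. The fit of the implied reads with voom gave 6.54 with an adjusted p of 0.104. The wild-type difference was 2.55 ± 1.23 (limma, adjusted p = 0.303).

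With 2 of 7 members called for injury in mutants, both upward, the share has to be read against a background of 30.8% of all tested genes called, 13.1% upward and 17.7% downward. The groups of both genes did not overlap, which held upward for 12% of all tested genes. Csf3r, however, was among the tested genes only through the injured libraries, where it was high. For injury in wild type 0 of 7 members were called, against a background of 0.116% by limma, and 1 member, Csf2rb, had an unadjusted p under 0.05, against 17.2% of all genes. In the same contrast that gene alone had injured values all above the intact ones, a pattern of 9.22% of all genes. Among the 5 mutants named M or the 4 named A8 analysed with the wild type, Csf2rb gave 3.94 (M, limma, adjusted p = 0.0732) and 5.19 (A8, adjusted p = 0.0286), and Csf3r gave 3.39 (M, adjusted p = 0.165) and 6.25 (A8, adjusted p = 0.0379). The M subset, with 3 injured against 2 intact mice, called 0 of 7 members.

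**Figure D3:**
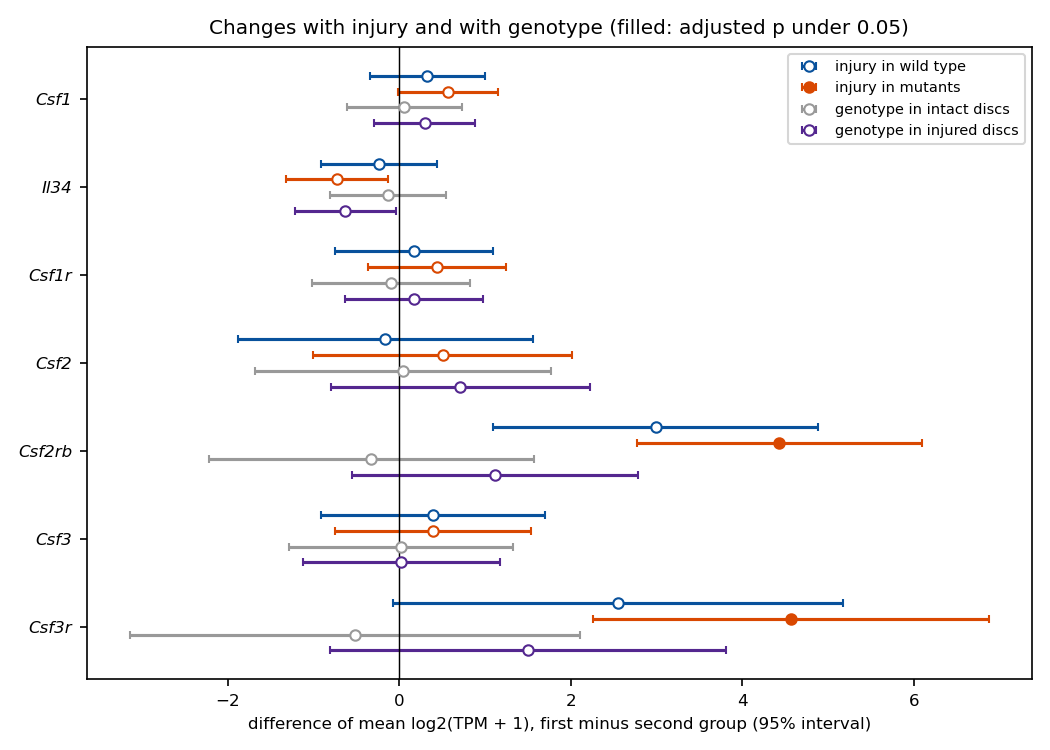
Differences of mean log2(TPM + 1) for each gene in 4 comparisons, with 95% intervals; filled points have an adjusted p under 0.05. The filled points are Csf2rb (4.43) and Csf3r (4.57) for injury in mutants, and the intervals of every genotype comparison except that of Il34 in injured discs include 0.

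Promoter sequences were compared for receptor genes that rose in injured mutants and for the other members with a window. RefSeq windows (GRCm38.p6) of 300 bases, from 250 before to 50 after a start of transcription, were found for 3 of the 7 members (Csf1, Csf2 and Csf3r), for Csf2rb2 and for Csf2ra. They were searched on both strands for GAGGAA (a core bound by PU.1, the master factor of myeloid cells), TTGCNNAA (C/EBP), TTCNNNGAA (STAT), TGANTCA (AP-1) and, for NF-kappaB, GGGA and CC with any 4 bases between them. Capitals mark matches in the windows of Csf3r, chr4:126024409-126024708 on the plus strand, and Csf2rb2, chr15:78305672-78305971 on the minus strand.
Csf3r: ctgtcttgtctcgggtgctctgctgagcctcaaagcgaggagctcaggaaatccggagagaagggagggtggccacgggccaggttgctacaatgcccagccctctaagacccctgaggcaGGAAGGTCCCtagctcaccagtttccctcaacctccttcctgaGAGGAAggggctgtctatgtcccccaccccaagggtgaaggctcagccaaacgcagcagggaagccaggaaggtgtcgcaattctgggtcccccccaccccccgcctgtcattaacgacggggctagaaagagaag
Csf2rb2: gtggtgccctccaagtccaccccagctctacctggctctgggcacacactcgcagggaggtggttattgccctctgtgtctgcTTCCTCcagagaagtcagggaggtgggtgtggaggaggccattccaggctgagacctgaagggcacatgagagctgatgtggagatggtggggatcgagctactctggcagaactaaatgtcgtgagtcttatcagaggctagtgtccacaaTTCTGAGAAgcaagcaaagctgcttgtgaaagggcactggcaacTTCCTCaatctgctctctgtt
Csf3r held 1 match of the NF-kappaB motif at -129 and 1 of GAGGAA at -86, counted from the start. Csf2rb2 held GAGGAA at -167 and at 29, both on the opposite strand and so printed as TTCCTC, and TTCNNNGAA at -15. GAGGAA occurred in 28.3% of the 32851 RefSeq windows of this length, the NF-kappaB motif in 20.7%, TTGCNNAA in 10.8%, TTCNNNGAA in 8.30% and TGANTCA in 7.81%. The Csf1 window held 3 matches of the NF-kappaB motif, a pair of them overlapping, and none of GAGGAA. The Csf2 window held TTGCNNAA at -145 and the NF-kappaB motif at 22, and none of GAGGAA. The window of Csf2ra, which narrowly missed the threshold for injury in mutants (limma, adjusted p = 0.0582), held GAGGAA at -14 and at -8. Csf2rb had no window, and whether the motif goes with the receptor genes that were called was not tested. These matches are letters in a window and not measured binding sites.

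The other genes of the pathway were read from lists, and Csf2rb2 was the only one of 4 tested receptor chains and alternative receptors to rise with injury in mutants. Of the related cytokines, 2 of 4 fell in mutants, too few genes to set against the 17.7% of all tested genes that fell: Il5, the eosinophil growth factor that signals through Csf2rb, by 1.28 ± 0.28 (limma, adjusted p = 0.00406), from 2.63 to 4.42 TPM in intact to 0.199 to 1.36 TPM in injured discs, and Thpo, thrombopoietin, by 1.15 ± 0.28 (adjusted p = 0.00794). Il3, the remaining ligand of the shared beta chain, was below the filter, with 0 to 2.82 TPM. With injury in mutants 13.1% of all tested genes rose and 17.7% fell. Of 8 tested genes that induce colony-stimulating factors or carry the signal of such inducers, 5 rose and 1 fell in mutants. Among them Nfkbiz, a nuclear cofactor induced by IL-1 and IL-17, rose by 2.13 ± 0.34 (limma, adjusted p = 9.66e-04), the IL-17 receptor gene Il17ra rose by 1.06 ± 0.22 (adjusted p = 0.00343), and its partner Il17rc fell by 0.80 ± 0.14 (adjusted p = 0.00127). Il1b ran from 1.24 to 2.60 TPM in intact and from 2.96 to 310.7 TPM in injured mutants, and Tnf from 0.189 to 2.34 and from 2.49 to 44.0 TPM. Il17a was at 0 in every intact library.

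Downstream of the receptors, 13 of 20 signalling genes rose and 1 fell with injury in mutants, where 13.1% of all tested genes rose and 17.7% fell. The median difference of the 20 was 0.69, against -0.08 over all tested genes. Stat3, the main signal carrier of CSF3R, rose by 0.78 ± 0.14 (limma, adjusted p = 0.00166), from 64.1 to 85.3 TPM in intact to 85.7 to 149.1 TPM in injured discs. The myeloid tyrosine kinase gene Fes rose by 2.05 ± 0.38 (adjusted p = 0.00183), and Inpp5d, which encodes the phosphatase SHIP1, by 3.46 ± 0.67 (adjusted p = 0.00225). Cblb, a ubiquitin ligase, fell by 0.45 ± 0.10 (adjusted p = 0.00435). Both Stat5 genes missed the threshold (Stat5a 0.30, adjusted p = 0.0756; Stat5b 0.08, adjusted p = 0.602). All 8 tested myeloid transcription factors rose in mutants, against 13.1% of all tested genes. Of these, Cebpe was at 0 in every intact library, so it passed the filter only through injured libraries, where it was higher. The listed Gfi1 was below the filter and is not in this count. Cebpd, Runx1 and Cebpa were first by p, with values of 2.38, 1.45 and 3.07. Cebpd, a factor induced by inflammatory signals, was also the only gene of all 14 lists called for injury in wild type (1.54 ± 0.27, limma, adjusted p = 0.0491), a call that held in 11 of 29 alternative settings. In the M subset 2 of 20 signalling genes, 2 of 7 tested transcription factors and 0 of 8 inducers rose. There 743 of 23489 tested genes were called in either direction.

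**Figure D4:**
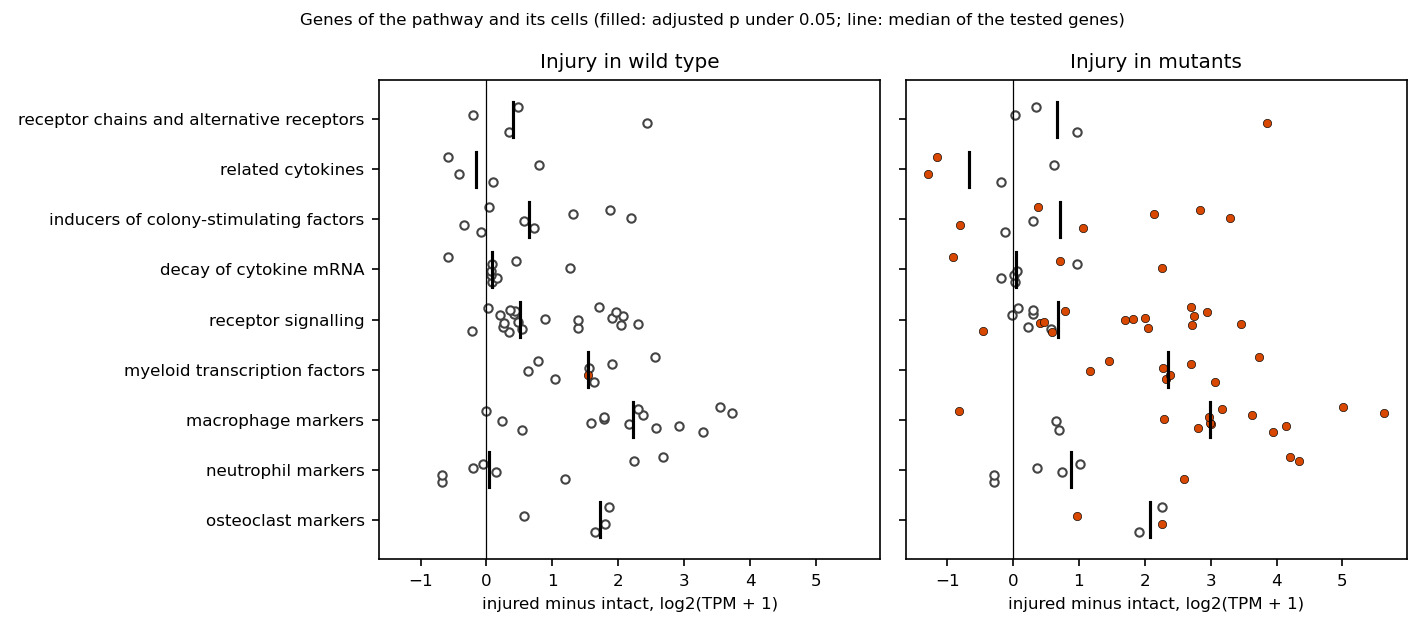
Differences with injury (log2(TPM + 1), injured minus intact) of the tested genes of 9 lists in wild type (left) and mutants (right), 1 point per gene; filled points have an adjusted p under 0.05 and vertical lines mark list medians. In mutants 13 of 20 signalling genes and 8 of 8 myeloid transcription factors are filled to the right of 0, and in wild type 1 gene of the 9 lists is filled. The transcription factor Cebpe passed the filter only through injured libraries. Over all tested genes 13.1% rose and 17.7% fell in mutants.

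Macrophage markers and some neutrophil markers were called upward for injury in mutants, as were Csf2rb and Csf3r, and the part of these markers in the results was not tested. The background for each count of markers in mutants was 13.1% of all tested genes rising and 17.7% falling. Of 14 macrophage markers 11 rose and 1, Mertk, fell, with Lyz2 (5.63 ± 0.93, limma, adjusted p = 0.00107), Cd14 and Tyrobp first by p. Their summed level was 155 to 314 TPM in intact and 932 to 8784 TPM in injured mutants, and no macrophage marker was at 0 throughout a group. Of 8 tested neutrophil markers 3 rose, S100a8 (4.34 ± 1.20, limma, adjusted p = 0.0147), S100a9 (4.21 ± 1.29, adjusted p = 0.0237) and Cxcr2 (2.60 ± 0.92, adjusted p = 0.0432). These calls held in 27, 24 and 14 of 29 alternative settings. The other 5 did not pass, and the sum of the 12 listed was 6.30 to 12.1 TPM in intact and 12.04 to 732 TPM in injured mutants. Injured mutant mouse 5, at 12.04 TPM, lay just below intact mutant mouse 4, at 12.08 TPM, although its Csf3r was 7.03 TPM. Of the listed neutrophil markers, Ly6g and Mpo were at 0 in every intact library, and Ltf in every intact mutant library. Mpo was at 0 also in every injured wild-type library, and Elane in every injured mutant library. Ly6g was not at 0 throughout either injured group, but was below the filter for testing. Injured mutant mouse 2 had the highest sums of both lists and the highest Csf2rb, Csf3r, Csf1 and Csf3. Osteoclast markers rose in 2 of 4 tested genes, too few to set against the background, Atp6v0d2 (2.26 ± 0.43, limma, adjusted p = 0.00202) and Ctsk (0.97 ± 0.25, adjusted p = 0.00926). In the M subset 0 of the macrophage, neutrophil and osteoclast markers rose. Of 10 disc cell markers 5 fell, while in the M subset 0 fell and 1 rose. Endothelial (6 tested), skeletal muscle (5), lymphocyte (2) and red cell (5) markers gave no call for injury in either genotype. This does not show that they were unchanged. In this order their median differences were 1.32, -0.21, -0.06 and 1.24 in mutants, against -0.08 over all tested genes. In wild type they were 1.44, -1.61, 0.31 and -0.001, against 0.01. The summed endothelial level was 2.71 to 9.33 TPM in intact and 9.78 to 63.7 TPM in injured mutants.

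Csf1r and Csf3r were also set against the markers of the cells known to carry them. The difference between log2(TPM + 1) of Csf1r and the mean of the 14 macrophage markers was 2.76 ± 0.81 (SD, n = 4) in intact and 0.33 ± 0.49 (n = 5) in injured mutants, and 2.91 ± 0.27 (n = 3) and 1.01 ± 1.02 (n = 4) in wild type. All injured mice lay below all intact mice of their genotype. By exact two-sided permutation this gave p = 0.0159 in mutants and 0.0571 in wild type, the smallest each design allows, and adjusted p-values of 0.0794 and 0.143. Csf3r against the mean of the 12 neutrophil markers went the other way, from -0.16 ± 0.22 (n = 4) to 3.23 ± 0.97 (n = 5) in mutants and from 0.02 ± 0.20 (n = 3) to 2.14 ± 1.99 (n = 4) in wild type, again without overlap and with the same exact permutation values, 0.0794 and 0.143 after adjustment. Several neutrophil markers were near 0 in all libraries, which holds their mean down, and Ly6g, Mpo, Ltf and Cxcr1 were below the filter. Of the 8 tested in mutants, S100a8 and S100a9 rose by 4.34 and 4.21, near the 4.57 of Csf3r. Cxcr2 rose by 2.60, and the other 5 did not pass. The rise of Csf3r against this mean thus depends on the markers listed. None of the 20 ratio tests passed after adjustment. Those of 4 against 3 mice could not, since their smallest p by exact permutation is 0.0571. Those of 5 against 4 mice, with a smallest p of 0.0159, could pass only if several reached it together.

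**Figure D5:**
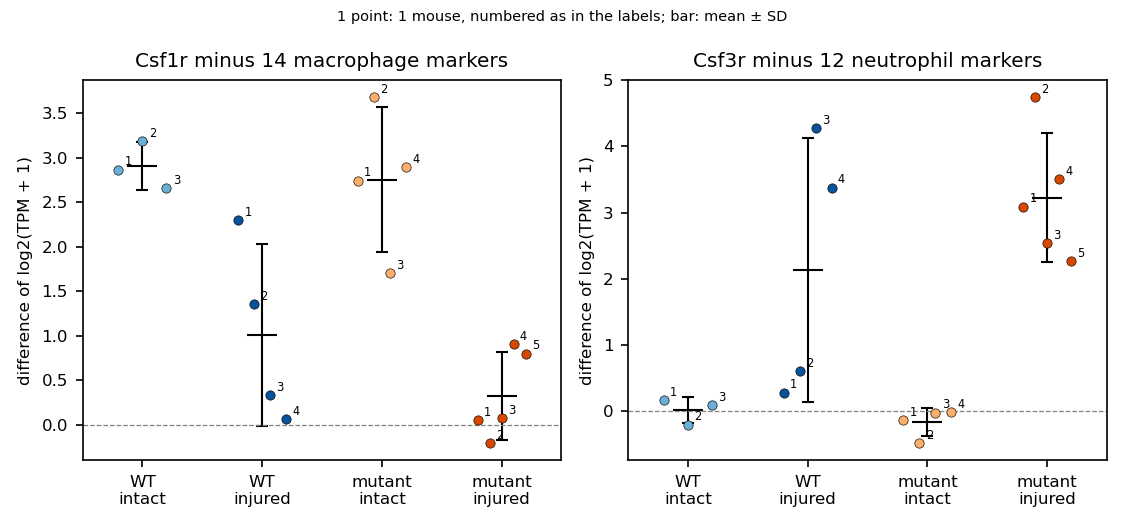
Left, Csf1r minus the mean of 14 macrophage markers; right, Csf3r minus the mean of 12 neutrophil markers, both as differences of log2(TPM + 1), with 1 point per mouse and the group mean ± SD. Injured mutants lie between -0.20 and 0.91 on the left, below all intact mice, and between 2.26 and 4.74 on the right, above all intact mice. Several of the 12 neutrophil markers were near 0 in all libraries, which holds their mean down.

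The level of each ligand against its receptor was also compared. In mutants Csf3 relative to Csf3r, as a log2 ratio of TPM + 1, was 0.68 ± 0.61 (SD, n = 4) in intact and -3.49 ± 1.08 (n = 5) in injured discs, without overlap (exact permutation, p = 0.0159, adjusted p = 0.0794). Csf2 relative to Csf2rb was 0.50 ± 0.77 (n = 4) and -3.42 ± 2.46 (n = 5), with injured mouse 3 at 0.37 among the intact values (exact permutation, p = 0.0476, adjusted p = 0.143). Of these 4 genes both receptors were called for injury in mutants and neither ligand was. The ligands were low in mutants, with 1 to 43 (Csf3) and 0 to 73 (Csf2) implied reads. Apart from Csf2 in injured mouse 3, these ratios therefore mainly restate the receptor values. A ligand change of a few-fold could be missed at these levels.

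Genes whose level followed a member most closely over the 16 mice were named by Pearson correlation of log2(TPM + 1), as a description of libraries that share injury and cell content. Csf2rb went with Clec4n (0.996), Stab1 and Lyz2, and Csf3r with Ceacam1 (0.991), Slc15a3 and Cd300lf, several of them known from myeloid cells. Csf1 went with Fpr1 (0.928), Rnf149 and Hilpda, and Il34 with Pus7 (0.963), Zfp61 and Rnf216. For Csf1r they were H3f3a (0.905), Stard9 and Daglb, for Csf3 Lamp1 (0.870), Csf1 and Sema4d, and for Csf2 Sdc4 (0.777), Siah2 and Pex16.

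Between genotypes 0 of 7 members were called, in intact discs against a background of 0.0165% and in injured discs against 0.918% of all tested genes by limma. In intact discs no member had an unadjusted p under 0.05, against 3.78% of all genes, and Csf3r was lower in all 4 mutants than in all 3 wild-type mice, at 1 to 10 implied reads. Such lower values without overlap were seen in 3.41% of all genes. In injured discs Il34 was the 1 member with an unadjusted p under 0.05, a share of 20.3% among all genes, with a difference of -0.63 ± 0.28, mutant minus wild type (limma, adjusted p = 0.223). Csf2rb and Csf3r differed by 1.11 ± 0.78 (adjusted p = 0.441) and 1.50 ± 1.08 (adjusted p = 0.454), and the groups of all 7 overlapped, where 4.77% of all genes had groups without overlap.

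Whether injury acted unequally in mutants and wild type was tested directly as an interaction, and 0 of 7 members were called by limma, as were 0 of all 24188 genes (0%). None of the 7 had an unadjusted p under 0.05, against 8.18% of all genes. The estimates, mutant effect minus wild-type effect, were 1.44 ± 1.18 for Csf2rb (95% interval -1.08 to 3.96, adjusted p = 0.779), 2.02 ± 1.64 for Csf3r (interval -1.48 to 5.51, adjusted p = 0.774) and -0.49 ± 0.42 for Il34 (interval -1.39 to 0.41, adjusted p = 0.783). The rises of Csf2rb and Csf3r called in mutants were thus not shown to differ from the differences seen in wild type, and all these intervals include 0.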

How the data were processed

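RNA was extracted with Trizol from 4 pooled tail discs per mouse, ribosomal RNA was depleted (QIAGEN FastSelect) and libraries were made with NEBNext Ultra II, per the labels' protocols, although the molecule label reads polyA RNA. The submitters' processing notes name bcl2fastq 2.20 and the build GRCm38; the aligner, the counting and the annotation are not given in the sources used here. The values deposited by the authors are TPM, in a single table of 16 mice. Groups and mouse numbers came from the titles.

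Gene lengths and positions came from GENCODE M21 (49056 of 49315 identifiers matched). With these lengths, 94.1% to 95.0% of values under 20 implied reads lay within 0.05 of a whole read, so the implied reads were taken as approximate depth. The genes that reached 1 TPM in 3 or more libraries were analysed on log2(TPM + 1), a scale that understates changes of low genes, with limma 3.58.1 in R 4.3.3 (eBayes with trend, all 16 libraries in 1 fit, 5 contrasts). Adjusted p-values are Benjamini-Hochberg over all tested genes, with a threshold of 0.05, and errors of differences are moderated standard errors. Ratios were compared by exact two-sided permutation with scipy 1.17.1, adjusted over 20 tests. In a test on simulated data for injury in mutants (23287 genes, 200 changed), 83% of changes of 2 and 67% of changes of 1 (log2) were recovered, with 11 false calls. The changed genes had a mean log2(TPM + 1) over 2, which leaves out genes as low as Csf2 and Csf3. Each simulated gene had the same normal spread in all groups, whereas Csf2rb and Csf3r spread more in injured groups, so these rates need not hold for them.

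Members and lists were chosen with earlier results of these data known. Members were always named; in each list the 3 genes with the smallest p were named, other list genes where a result turned on them, and for likeness the 3 best correlated genes with a symbol and a mean of at least 1 TPM. The lists were receptor chains, related cytokines, inducers, decay of cytokine mRNA, receptor signalling, myeloid transcription factors, and macrophage, neutrophil, osteoclast, disc cell, endothelial, skeletal muscle, lymphocyte and red cell markers. Groups share mouse numbers but are different mice. Alternatives were another pseudocount (0.1), other filters, median-of-ratios scaling, quantile normalization, no trend, sample weights, a block for the mouse number, a fit of the compared groups alone, the library naming, Csf2rb and Csf2rb2 summed, leaving out each mouse and, chosen after seeing the data, voom on implied reads.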

Additional observations from a re-analysis of the deposited data

Results flagged for a closer look

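In groups of 4 or 5 mice, 4 values of the members stood far from the rest of their group by Dixon's test, among 21 gene and group combinations checked. The test was run on TPM and not on the log2(TPM + 1) scale, where high values stand out less. A chance rate of about 1 in 20 holds only for normally distributed values, which was not tested. Csf1 was 43.6 TPM in intact mutant mouse 3, against 31.3 to 32.9 TPM in the other 3. Csf2 was 27.9 TPM in injured mutant mouse 3, against 0.647 to 1.49 TPM. Csf3 was 8.95 TPM in injured mutant mouse 2, against 0.222 to 1.90 TPM. Csf3r was 296.6 TPM in that same mouse, against 7.03 to 31.9 TPM, and its Adam8 level, 264.1 TPM, was also the highest of the group.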

How the results depend on the processing

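All values here are for the 29 alternatives run, on the log2(TPM + 1) scale unless read-based. Csf2rb and Csf3r for injury in mutants kept their direction throughout, from 3.94 to 5.96 and from 3.39 to 6.54; Csf2rb was called except with the mutants named M, and Csf3r except there and with voom (adjusted p = 0.104). The number of members called for injury in mutants, 2, was 2 to 3 without single mice and 0 with the mutants named M (3 injured, 2 intact), against 2 with those named A8 (2 and 2). The cause was not tested. For injury in wild type it was 0, and 0 to 1 without single mice, the 1 being Csf2rb without injured mouse 1. A filter at a mean of 5 TPM left out Csf2 and Csf3.

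Directions that turned belonged to differences never called. With the A8 mutants, genotype differences in intact discs turned for Csf1 (-0.0413), Csf2 (-0.55), Csf3 (-0.11) and Csf1r (0.23), and in injured discs for Csf2 (-0.29). With the M mutants they turned for Il34 in intact discs (0.13), Csf3 in injured discs (-0.32), Csf3 for injury in mutants (-0.0769) and, in the interaction, Csf1 (-0.0689) and Csf3 (-0.47). A pseudocount of 0.1, sample weights and voom turned Csf2 in intact discs (-0.40, -0.24 and -0.24), Csf3 in injured discs (-0.0733, -0.0820 and -0.33) and Csf3 in the interaction (-0.0781, -0.16 and -0.34), and sample weights turned Csf1r for injury in wild type (-0.0141). The cause was not tested.

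Without single mice the ranges that crossed 0 were, for genotype in intact discs, -0.0542 to 0.19 for Csf1, -0.32 to 0.46 for Csf2, -0.24 to 0.21 for Csf3, -0.29 to 0.0132 for Il34, -0.25 to 0.0652 for Csf1r and -0.46 to 0.20 for Csf1r against macrophage markers. For genotype in injured discs they were -0.0631 to 0.97 for Csf2, -0.45 to 0.31 for Csf3, -0.0778 to 0.47 for Csf1r and -1.35 to 0.30 for the ratio of Csf2 to Csf2rb. For injury they were -0.27 to 0.87 (Csf2, mutants), -0.0755 to 0.68 (Csf3, mutants), -0.35 to 0.14 (Csf2, wild type) and -0.13 to 0.37 (Csf1r, wild type), and in the interaction -0.11 to 1.03 (Csf2) and -0.47 to 0.29 (Csf3).

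The replicate block called the same number of members, 2 for injury in mutants and 0 elsewhere, with 4.57 for Csf3r becoming 5.05. Same-numbered mice did not deviate together (1 of 21 pairs correlated over 0.1, from -0.217 to 0.151), so the numbers were not treated as pairs. Counts over all genes moved more than the members. The 28 for injury in wild type became 64 with a pseudocount of 0.1, 11 without a filter, 17 with median-of-ratios scaling, 13 without trend, 77 with sample weights, 5 with only those groups, 5 with the block, 7 with A8 mutants, 4 with voom, and 2 to 463 without single mice, the extremes being intact mouse 1 and injured mouse 1. The 222 between genotypes in injured discs became 86 without a filter, 93 with quantile normalization, 1070 with sample weights, 5 with only those groups, 11 with the block, 1 with A8 mutants, 557 with voom, and 7 to 2272 without single mice, the extremes being injured wild-type mice 2 and 3. The 7438 for injury in mutants became 743 with M and 3649 with A8 mutants. The 4 between genotypes in intact discs ran from 0 to 8, and the 0 of the interaction became 4 with sample weights and up to 15 without single mice (injured wild-type mouse 3).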
